A study of Mus musculus with 6 samples.

Results

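miR-690 (mmu-miR-690 in the deposited table) is a mouse microRNA, and its single row of the series count table was taken by name, as 1 of 707 mature miRNA names. The libraries held small RNA from exosomes, vesicles that cells release, collected from supernatants of bone marrow-derived macrophages on the C57BL/6 strain. The groups were 3 wild-type (WT) libraries and 3 libraries of the Roquin-1 san:san genotype, with no treatment, age or time in the labels. Roquin-1 binds stem-loops in messenger RNAs and promotes the decay of those messages, and san is its sanroque allele, a germline change that is present in all cells of the animal and not in macrophages alone. The comparison asks how the miRNA cargo of macrophage exosomes differs with this genotype.

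A mature miRNA guides Argonaute proteins to messenger RNAs that pair with its seed, bases 2 to 8, and lowers the output of those messages. miR-690 has been described as a cargo of exosomes from IL-4-polarised (M2-like) bone marrow macrophages, where it was reported to raise insulin sensitivity in obese mice, with the NAD kinase gene Nadk as a target. The labels of these libraries name no polarising agent.

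The sequence of miR-690 is shown with its seed in capitals, because the seed sets which messages it can pair with. In the hairpin the capitals mark the mature miRNA, which is cut from the 3′ side of the stem. Both come from RefSeq on GRCm38.p6, minus strand, at chr16:28599940-28599961 for the mature form and chr16:28599935-28600043 for the hairpin.
miR-690: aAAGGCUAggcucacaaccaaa
Mir690 hairpin: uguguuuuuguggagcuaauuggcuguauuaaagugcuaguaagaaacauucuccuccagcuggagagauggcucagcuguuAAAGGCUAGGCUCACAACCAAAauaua
The mature form is 22 bases long and takes bases 83 to 104 of the 109-base hairpin. Of the mouse mature miRNAs in the RefSeq table, 0 others carry its seed, so it stands without a seed family there. In the GENCODE annotation of GRCm38 the hairpin lies within 1 intron of Fgf12, a gene for an intracellular fibroblast growth factor-like protein, on the same strand. That intron belongs to 1 of 6 annotated Fgf12 transcripts, and 0 of the 6 have an exon over the hairpin. The build in the submitters' processing notes is another one, mm9, so these coordinates describe the reference and not the authors' alignments.

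The raw counts of miR-690 lay within 1.86-fold of each other although the libraries differed 14.9-fold in total. The WT libraries held 211, 386 and 251 reads of miR-690. The san:san libraries held 272, 244 and 208. The counts overlapped between the genotypes, with means of 283 ± 91.7 in WT and 241 ± 32.1 in san:san (SD, n = 3 per genotype throughout). The totals did not overlap, at 12447, 28884 and 21754 counts for WT and 185901, 160588 and 126098 for san:san, and the mean total was 7.49-fold higher in san:san. Depth and genotype therefore moved together, and their parts in any difference below cannot be told apart. Within each genotype the raw count followed the total: the library with the larger total had the larger count of miR-690 throughout.

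Of the 707 names, 337 to 460 had a read in the WT libraries and 465 to 520 in the san:san libraries. Markers of cell types were read against the edgeR test with TMM scaling described further on, which called 34.6% of the 254 tested miRNAs higher in san:san and 29.5% lower. Myeloid marker miRNAs took 5.56% to 6.60% of counts in WT and 10.9% to 12.3% in san:san, with 6 of 7 tested higher, a count that was 3 with library totals and 2 with reference miRNAs as the scale. Erythroid markers took 3.84% to 6.25% and 15.6% to 17.9%, with 4 of 5 tested higher. Of these, miR-486a-5p and miR-486b-5p have identical counts, so these shares hold the same counts 2 times. With identical rows merged 3 of 4 were higher. Lymphocyte markers took 0.499% to 0.675% and 1.49% to 2.02%, with 1 of 2 tested higher, and endothelial markers 1.82% to 3.69% and 3.37% to 6.96%, with 2 of 2 higher. The endothelial count was 1 with reference miRNAs as the scale. Stromal markers took 0.852% to 1.32% and 0.743% to 0.839%, with 1 of 5 higher and 1 lower. With library totals or reference miRNAs as the scale, 0 stromal markers were higher and 2 lower. Liver markers took 0.501% to 0.707% and 0.439% to 0.600%, with 1 of 2 higher. That name, miR-122-3p, had 1, 1 and 0 reads in the WT and 33, 32 and 25 in the san:san libraries. It passed the filter on low counts through its san:san reads alone, which favoured a higher call. Neural markers took 0.0964% to 0.149% and 0.0947% to 0.111%, with 1 of 2 higher and 1 lower. With library totals or reference miRNAs as the scale, 0 neural markers were higher and 1 lower. The lower name, miR-9-5p, passed the filter on low counts through its WT reads alone, which favoured a lower call. Muscle markers, none of them tested, took 0 to 0.0312% and 0.00476% to 0.00747%. Their part in the difference of miR-690 was not tested. Whether the replicates are separate mice or cultures is not stated in the labels, and p-values then measure only the spread between these 6 libraries, possibly a technical one.

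miR-690 took a 9.04-fold larger share of the counts in WT than in san:san exosome libraries. Its share was 1.70% in WT replicate 1 (exact 95% binomial interval 1.48% to 1.94%), 1.34% in replicate 2 (1.21% to 1.48%) and 1.15% in replicate 3 (1.02% to 1.30%). In san:san it was 0.146% (0.129% to 0.165%), 0.152% (0.133% to 0.172%) and 0.165% (0.143% to 0.189%). The intervals cover counting error only, since reads without molecular identifiers are not independent molecules. The lowest WT share lay 6.99-fold above the highest san:san share. The means were 1.40% ± 0.275 and 0.154% ± 0.00956, and the exact two-sided permutation test gave p = 0.1, the smallest that 3 against 3 allows. A share lower in every san:san library than in every WT library was found for 107 of the 254 tested miRNAs (42.1%), so this separation alone does not set miR-690 apart. Put as a frequency, 1 count in 59.0, 74.8 and 86.7 was miR-690 in the WT libraries, against 1 in 683, 658 and 606 in san:san. In such bulk samples, fewer exosomes that carry a miRNA and fewer copies per exosome cannot be told apart.

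The spread of the share within a genotype differed in its relation to counting error. The SD of the 3 WT shares was 3.27 times the SD that counting alone gives at these depths (0.0843 percentage points). The SD of the 3 san:san shares was 0.958 times that of counting alone (0.00998 percentage points). WT replicate 1, with the smallest total, had the highest share.

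**Figure D1:**
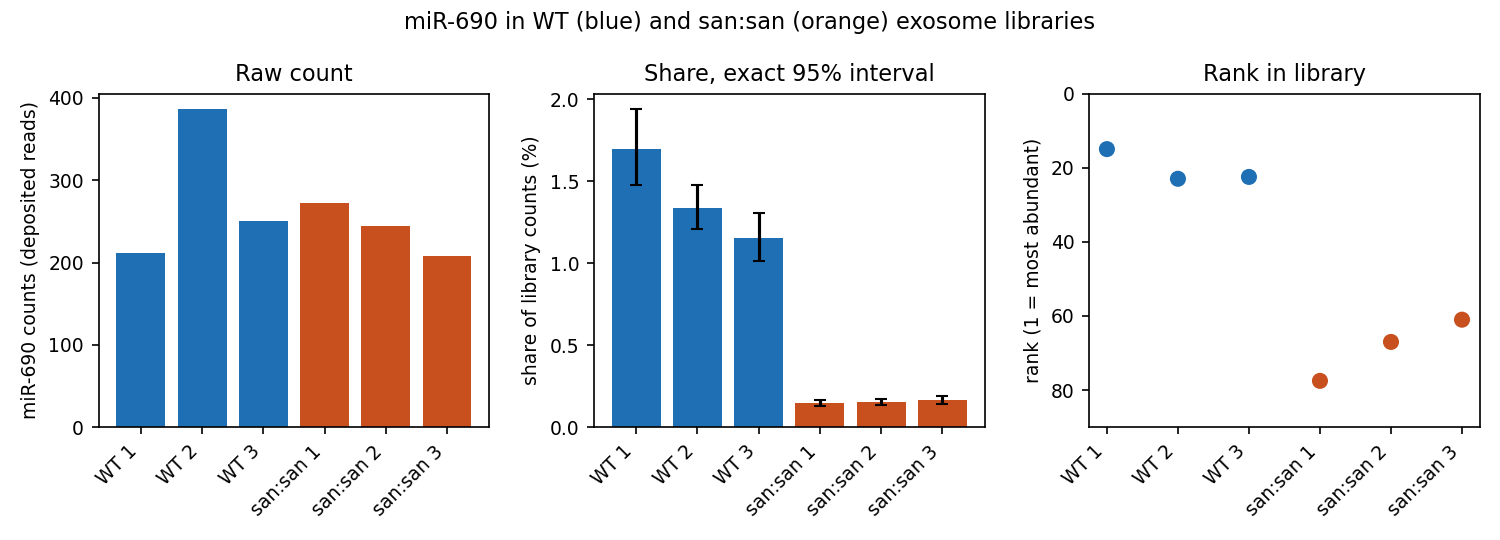
miR-690 by library: raw count (left, reads), share of all miRNA counts with its exact 95% binomial interval (middle, percent) and rank by count (right, 1 is the most abundant, axis inverted), WT in blue and san:san in orange. The counts overlap between 208 and 386, while shares are 1.15% or more in WT and 0.165% or less in san:san, and ranks are 23 or better in WT and 61 or worse in san:san.

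The rank, which does not depend on how libraries are scaled, was worse in san:san as well. miR-690 was at rank 15, 23 and 22.5 by count in the WT libraries (ties share a mean rank). It was at rank 77.5, 67 and 61 in san:san, without overlap (means 20.2 ± 4.48 and 68.5 ± 8.35, exact permutation p = 0.1, the smallest possible). Among the names detected in its library it stood at the 95.8 and 95.2 percentile in WT replicates 1 and 2, and at the 85.3, 86.8 and 87.1 percentile in san:san. It remained among the well detected miRNAs in all 6 libraries.

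In CPM (each count relative to a common library size) scaled with TMM (trimmed mean of M-values, which sets the libraries on a common scale from the miRNAs that differ least), miR-690 was 6.03-fold lower in san:san. Its levels were 14673, 10712 and 9091 TMM-scaled CPM in WT and 1715, 1836 and 2131 in san:san. The lowest WT level lay 4.27-fold above the highest san:san level. The means were 11492 ± 2871 and 1894 ± 214. The log2 fold change was -2.59 ± 0.22 (SE; 95% interval -3.07 to -2.11), with an adjusted p of 3.72e-07 in edgeR's quasi-likelihood test with Benjamini-Hochberg adjustment over 254 miRNAs. At an adjusted p under 0.05, 163 of those 254 were called (64.2%), 75 lower (29.5%) and 88 higher (34.6%). A call is therefore common in these libraries. By size of the fall miR-690 was the 43rd of the 75 lowered miRNAs, and by p it was the 17th of all tested. The median log2 fold change of all tested miRNAs was 0.30.

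The direction and the call of miR-690 were the same under each scaling and tool run, and the size moved with the scaling. RLE factors gave a log2 fold change of -2.85, upper quartile factors -2.74 and TMMwsp factors -2.68. Plain totals gave -3.17, which is 8.99-fold lower, and totals that leave out the 5 most abundant miRNAs gave -2.82. A library size set by 6 reference miRNAs gave the lowest value, -3.35, which is 10.2-fold lower. DESeq2 gave -2.85 and limma on the authors' scaled values plus 1 gave -3.14. Without a filter on low counts the value was -2.44, which is 5.41-fold lower and the nearest to 0 of those run. Libraries thinned to the smallest WT total gave -3.00 as the median of 20 draws. Adjusted p-values over these alternatives ran from 1.06e-30 with DESeq2 to 3.28e-05 with limma. The median of all tested miRNAs moved as well, from 0.30 with TMM to 0.04 with RLE, -0.29 with totals and -0.43 with the reference miRNAs. Set against that median, miR-690 lay at -2.89 with TMM and between -2.67 and -3.02 over the alternatives.

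**Figure D2:**
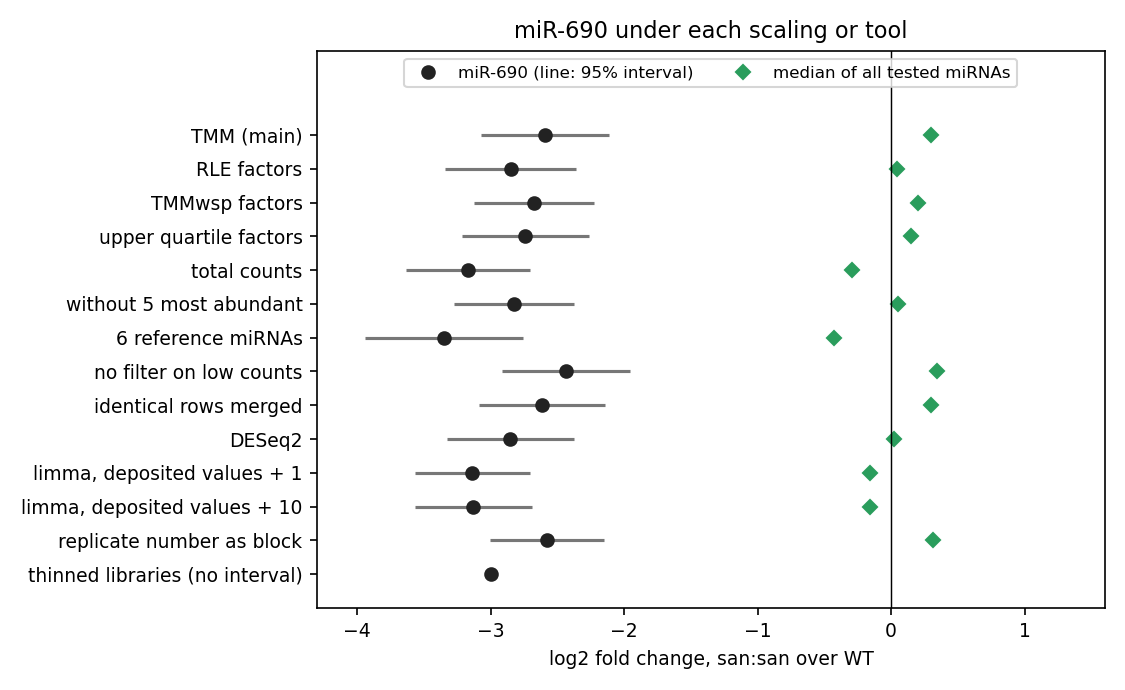
log2 fold change of miR-690, san:san over WT, under each scaling or tool (black points, lines give the 95% interval), beside the median of all tested miRNAs under the same setting (green diamonds). miR-690 lies between -2.44 and -3.35, and each interval drawn stays below 0. The thinned libraries are drawn without an interval or a median.

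The authors' own scaled values hold the same counts in another unit, apart from 1 name in WT replicate 2. The totals they imply were 92.4% to 94.6% of the library counts, so their ratio restates that of the shares. The authors listed miR-690 at 17916, 14264 and 12294 in WT and at 1576, 1638 and 1786 in san:san. The means were 14825 ± 2853 and 1667 ± 108, a ratio of 8.89. One read of miR-690 was worth 69.5, 27.8 and 36.2 TMM-scaled CPM in the WT libraries and 6.31, 7.52 and 10.2 in san:san, so steps of the WT levels were coarser.

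Single reference miRNAs gave ratios that need no library scaling. Per 100 counts of miR-16-5p, a miRNA often used for normalisation and abundant in red cells, there were 590 ± 227 counts of miR-690 in WT and 51.7 ± 5.63 in san:san, 11.4-fold apart. Per 100 counts of miR-191-5p the values were 86.6 (range 70.9 to 102.9) and 7.96 (7.14 to 8.79), 10.9-fold apart. Per 100 counts of miR-103-3p, which has been linked to insulin signalling, they were 896 ± 336 and 108 ± 2.20, 8.30-fold apart. Per 100 counts of miR-423-5p there were 50.8 ± 11.6 in WT and 6.93 ± 0.434 in san:san, 7.33-fold apart. Per 100 counts of let-7a-5p there were 21.0 ± 2.91 and 2.96 ± 0.485, 7.10-fold apart. The ratio to miR-93-5p, of the miR-106b~25 cluster, differed most of the 6, with 90.7 ± 73.3 in WT and 3.63 ± 0.0786 in san:san, 25.0-fold apart. WT replicate 1 set much of that value, which was 13.5-fold without it. None of the 6 ratios overlapped between the genotypes (exact permutation p = 0.1 for each, the smallest possible, and also 0.1 after adjustment over the 6). With TMM scaling 3 of these 6 references, miR-16-5p, miR-191-5p and miR-93-5p, were themselves called higher in san:san, beside 34.6% of all tested miRNAs. Against all 253 other tested miRNAs, the ratio of miR-690 was lower in san:san without overlap for 199 (78.7%) and higher without overlap for 29. The median tested miRNA had 58.5 such lower ratios, and 35 tested miRNAs had more than miR-690.

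The narrow range of its raw counts set miR-690 beside few other names. Its highest count was 1.86 times its lowest, whereas the median over tested miRNAs was 18.7. The only tested miRNA with a smaller value was miR-320-3p, at 1.82, with 22, 31 and 38 reads in the WT and 40, 37 and 24 in the san:san libraries. The mean raw count of miR-690 in san:san was 0.854 times that in WT, against a median of 6.23 over the tested miRNAs. Of these, 42 had a lower ratio than miR-690, which shows that many names had fewer reads in the deeper libraries.

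**Figure D3:**
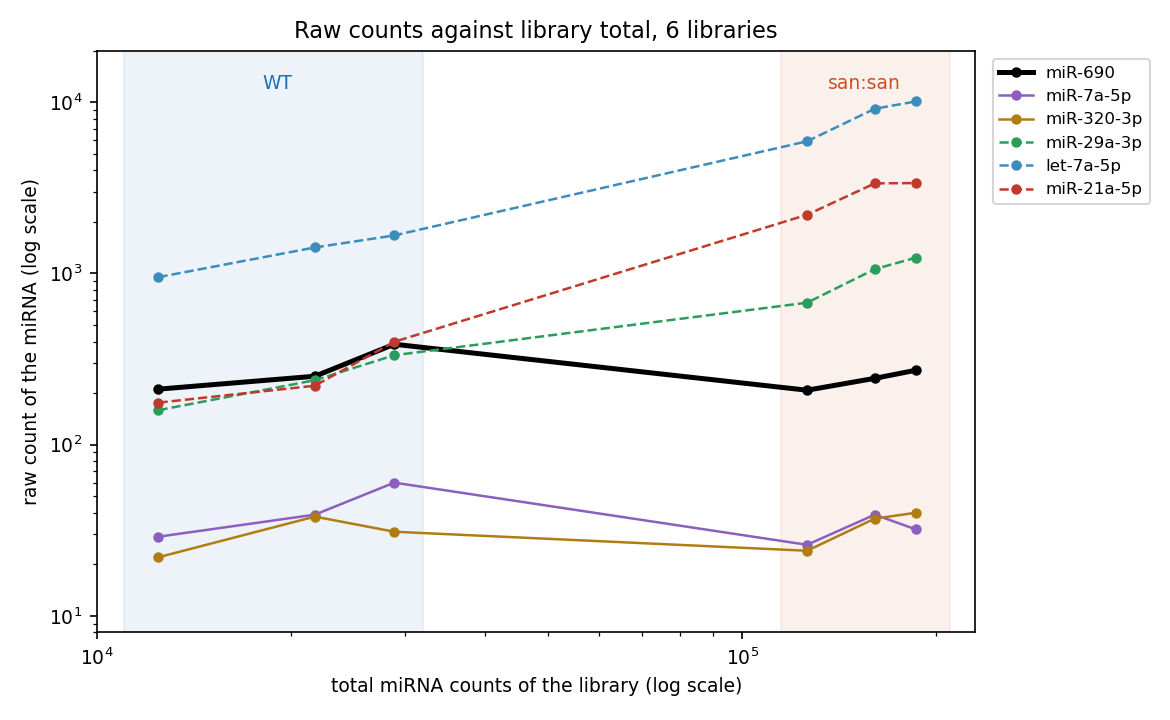
Raw counts (vertical, log scale) against the total miRNA counts of the library (horizontal, log scale) for miR-690 and 5 other miRNAs. Lines join the 6 libraries in order of total, with WT on blue and san:san on orange ground. The counts of miR-690, miR-7a-5p and miR-320-3p overlap between the genotypes across a 14.9-fold range of totals, while those of let-7a-5p, miR-21a-5p and miR-29a-3p climb.

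Neighbours by level show how far miR-690 moved down the abundance order. In WT it was the 20th miRNA by mean TMM-scaled CPM. Just above it were miR-486a-5p and miR-486b-5p, erythroid miRNAs with identical counts (12033 ± 1692 CPM), and just below it were let-7d-5p (11465 ± 2427) and miR-221-3p (11387 ± 2391). The level of miR-690 overlapped those of all 4 in WT. Both miR-486 names were higher in san:san (log2 2.50, edgeR adjusted p = 2.26e-07). The values of let-7d-5p (-0.19, 0.415) and miR-221-3p (-0.34, 0.164) did not pass with TMM, though they were called lower in 5 and 8 alternatives.

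In san:san miR-690 was the 65th by mean level. Around it were miR-374b-5p (1922 ± 412 CPM) and miR-374c-5p (1913 ± 410), both higher than in WT with TMM (log2 1.13 and 1.15). Each lost that call in 4 alternatives. Just below were miR-98-5p of the let-7 family (1887 ± 144) and miR-99b-5p (1854 ± 279), whose log2 fold changes of 0.08 and -0.12 did not pass with TMM. The level of miR-690 overlapped those of all 4 there too. Of the 22 other tested miRNAs within 2-fold of the WT level of miR-690, 8 were higher, 5 lower and 9 did not pass, with a median log2 fold change of 0.14. These shares are near those over all tested miRNAs (34.6% higher and 29.5% lower). Of those 5, only miR-23a-5p fell by more than miR-690 (log2 -6.20). The other lowered members were let-7c-5p (-1.38), let-7b-5p (-0.66), miR-125b-5p (-1.90) and let-7e-5p (-0.93), all named after their values were seen.

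The 5 tested miRNAs with the most similar profile over the 6 libraries were taken by the distance between log2 TMM-scaled CPM profiles, each centred on its own mean. The median distance of tested miRNAs from miR-690 was 4.26. miR-320-3p is named only. The sequences of the other members are shown, with seeds in capitals, because their seeds differ from that of miR-690.
miR-7a-5p: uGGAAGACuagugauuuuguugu
miR-25-5p: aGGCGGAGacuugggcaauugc
miR-188-5p: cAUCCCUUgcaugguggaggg
miR-351-5p: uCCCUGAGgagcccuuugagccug
miR-7a-5p was the nearest, at a distance of 0.411, with 29, 60 and 39 reads in the WT and 32, 39 and 26 in the san:san libraries (log2 -2.72 ± 0.25). Like miR-690 it had its highest count in WT replicate 2 and overlapping counts between the genotypes. miR-25-5p, the less abundant arm of its hairpin, lay at 0.794 with 5, 10 and 8 reads in the WT and 9, 4 and 5 in the san:san libraries (-2.64 ± 0.46). miR-320-3p lay at 0.832 (-2.21 ± 0.27). miR-188-5p lay at 0.842, with 17, 68 and 27 reads in the WT and 33, 24 and 22 in the san:san libraries (-2.76 ± 0.29). miR-351-5p lay at 0.895, with 4, 10 and 9 reads in the WT and 9, 9 and 8 in the san:san libraries (-2.10 ± 0.44). Their lower values in san:san follow from how they were chosen and are a description. miR-690 was the most abundant of the 6 in both genotypes. The counts of miR-25-5p and miR-351-5p, at most 10 reads in a library, carry large counting errors. Both names passed the filter on low counts through their WT reads alone, which favoured a lower call.

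Among 16 miRNAs described in macrophage exosomes or in metabolic control, 15 were tested, and with TMM 4 rose, 3 fell, miR-690 among them, and 8 did not pass. Without miR-690, 4 of 14 were higher (28.6%) and 2 lower (14.3%), beside 34.6% and 29.5% of all tested miRNAs, so neither share stands above the background. The median log2 fold change of the 15 was 0.15, beside 0.30 for all tested miRNAs. With library totals, reference miRNAs or limma, 7 of the 15 were lower. miR-378a-3p, encoded in the gene for PGC-1β and linked to oxidative metabolism, had 38, 274 and 166 reads in the WT and 216, 166 and 143 in the san:san libraries (log2 -2.04 ± 0.29, edgeR adjusted p = 3.87e-05). Its raw counts overlapped between the genotypes, as those of miR-690 did, and WT replicate 1 was far below the other WT libraries. miR-33-5p, from the gene for the sterol regulator SREBP2 and a repressor of cholesterol efflux, had 3, 16 and 10 reads in the WT and 8, 3 and 10 in the san:san libraries (-2.69 ± 0.54, 5.92e-04). It passed the filter on low counts through its WT reads alone, which favoured a lower call.

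The 4 members that rose with TMM were miR-21a-5p, miR-26a-5p, miR-223-3p and miR-222-3p. miR-21a-5p, induced in activated macrophages, had 176, 399 and 221 reads in the WT and 3374, 3360 and 2203 in the san:san libraries (log2 1.15 ± 0.21, edgeR adjusted p = 3.19e-04). In WT its level, 10439 ± 2187 TMM-scaled CPM, was close to that of miR-690, and in san:san it reached 23040 ± 2043. miR-26a-5p rose from 202 ± 56.9 to 841 ± 58.3 CPM (1.95 ± 0.31, 9.25e-05). miR-223-3p, a myeloid miRNA, rose by log2 0.87 ± 0.26 (adjusted p = 0.00849) and miR-222-3p, the paralog of miR-221-3p, by 0.73 ± 0.28 (0.0383). Under the other settings 1 to 5 members were higher and 3 to 7 lower. The call of miR-222-3p was lost in 13 alternatives, that of miR-223-3p in 6 and that of miR-21a-5p in 1.

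Further members of that list did not pass with TMM. miR-29a-3p, described in macrophage exosomes in obesity, had 159, 333 and 238 reads in the WT and 1236, 1060 and 675 in the san:san libraries. Its level of 9639 ± 1266 CPM in WT was near that of miR-690, and in san:san it was 7561 ± 567 CPM (log2 -0.34 ± 0.19, edgeR adjusted p = 0.130). It was called lower in 8 of the alternatives. miR-155-5p, an inflammation-induced miRNA reported in exosomes of adipose tissue macrophages, was too low to test with 1, 7 and 1 reads in the WT and 15, 13 and 3 in the san:san libraries.

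**Figure D4:**
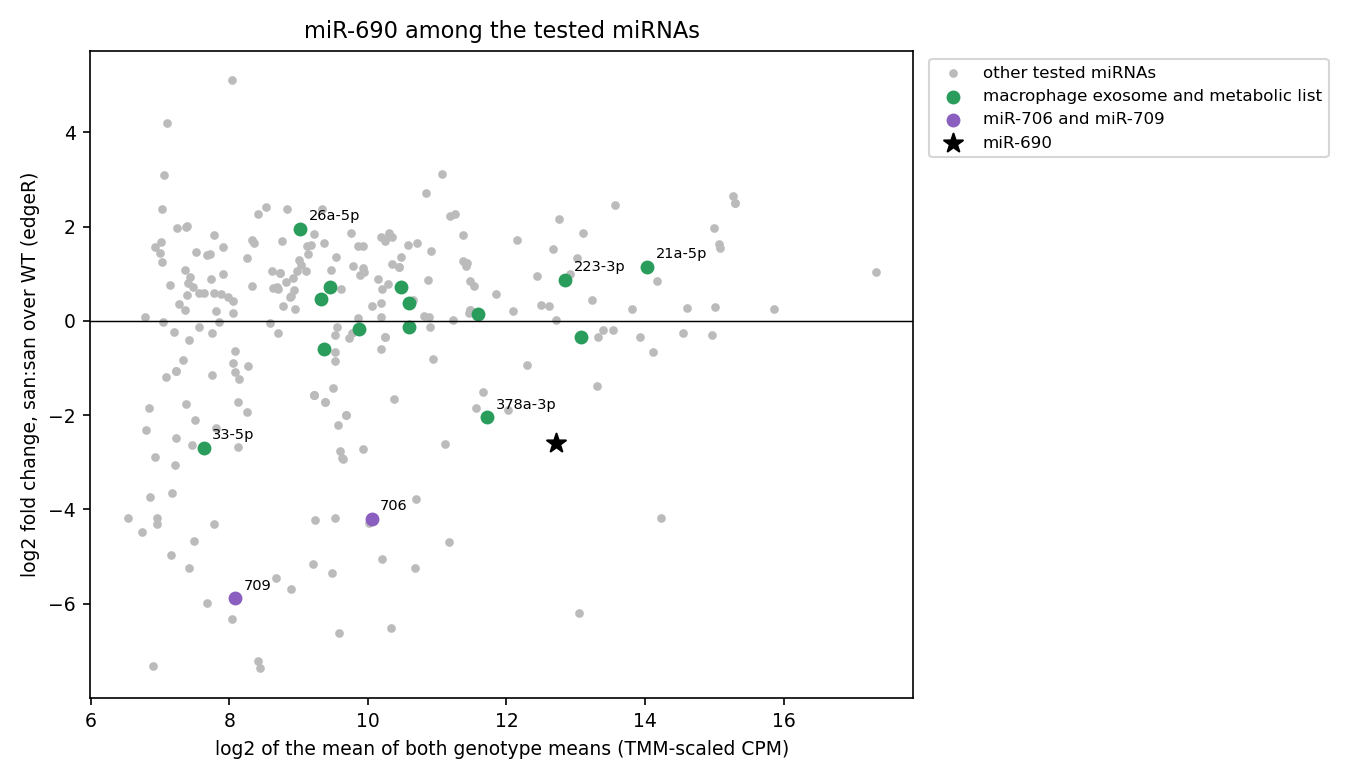
Each point is 1 of 254 tested miRNAs, by its level (horizontal, log2 of the mean of both genotype means in TMM-scaled CPM) and its log2 fold change, san:san over WT (vertical). miR-690 (star, -2.59) lies below the other members of the macrophage exosome and metabolic list (green) except miR-33-5p (-2.69), and above miR-706 and miR-709 (purple).

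Of 8 miRNAs linked to IL-4 or M2-like macrophages, 7 are in the table and 5 were tested. Besides miR-690, miR-378a-3p and miR-378a-5p (log2 -1.14 ± 0.48, edgeR adjusted p = 0.0496) and let-7c-5p were lower, and miR-223-3p was higher. Without miR-690 these are 3 lower of 4 and 1 higher, beside 29.5% and 34.6% of all tested miRNAs, and 2 of the 3 are arms of 1 hairpin. let-7c-5p had 238, 457 and 404 reads in the WT and 851, 780 and 546 in the san:san libraries (-1.38 ± 0.19, 2.87e-05). The call of miR-378a-5p, with a single read in WT replicate 1, was lost in 7 alternatives. The median of the 5 was -1.38, and -1.26 without miR-690, beside 0.30 for all tested. miR-511-3p, from the gene of the mannose receptor and a marker of M2-like macrophages, had 0 reads in all 3 WT libraries and 1, 2 and 6 in san:san. miR-511-5p had 0 reads in all 3 WT libraries and 0, 2 and 0 in san:san. Both were too low to test. With a mean total 7.49-fold higher in san:san, such few reads do not show a difference.

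Of 8 miRNAs induced by inflammatory stimuli, 3 were tested. miR-146a-5p and miR-146b-5p, negative regulators of Toll-like receptor signalling, had log2 fold changes of 0.26 and 0.15 that did not pass (edgeR adjusted p = 0.363 and 0.530). miR-9-5p was lower, with 4, 17 and 14 reads in the WT and 2, 4 and 2 in the san:san libraries (-4.31 ± 0.50, 5.98e-06). It passed the filter on low counts through its WT reads alone, which favoured a lower call. The median of the 3 was 0.15.

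Names close to miR-690 by number were also looked at. The table has 16 names from miR-680 to miR-721, 3 of them tested. miR-690 is 1 of these 3, and the other 2 were lower too, beside 29.5% of all tested miRNAs. miR-706 had 36, 76 and 40 reads in the WT and 16, 11 and 14 in the san:san libraries (log2 -4.20 ± 0.30, edgeR adjusted p = 6.12e-08). miR-709 had 6, 18 and 19 reads in the WT and 2, 0 and 1 in the san:san libraries (-5.88 ± 0.60, 1.89e-06). The deeper san:san libraries thus had fewer raw reads of these 2 names than the WT libraries. Both names passed the filter on low counts through their WT reads alone, so the filter itself favoured a lower call. The 16 names together took 1.48% to 2.09% of WT counts and 0.164% to 0.182% of san:san counts, most of it miR-690.

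The mature sequence of miR-690 is not unique to its annotated gene. An exact search of 141767 GENCODE transcripts of GRCm38 found it in 19 transcripts of 19 genes on 12 chromosomes. Of these genes 16 are annotated as miRNA genes, Mir690 and 15 predicted ones such as Gm25991 on chromosome 11 (65067709 to 65067807) and Gm24049 on chromosome 2 (27401852 to 27401951). The others are Fundc2, a protein-coding gene for a mitochondrial outer membrane protein on chromosome X, the antisense transcript BC018473 and the unclassified gene Gm42826. A read with the whole mature sequence fits all of these, so the counts cannot be tied to the Mir690 hairpin within Fgf12. How the authors placed reads that fit several loci is not given in the sources used here.

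Few of the tested miRNAs that could be searched had as many copies. Of 254 tested names 208 matched a RefSeq mature sequence, and their median was 1 GENCODE gene. There were 132 names in 1 gene, 73 in 2 to 4 genes and 3 in 5 or more. Tested names without a match were not searched. Among them were names with counts identical to another name, such as miR-669a-3p and miR-669o-3p, so multi-copy names may be missed. The 3 names in 5 or more genes were miR-690 with 19 genes, miR-706 with 209 and miR-3473b with 360. All 3 were lower in san:san, against 29.5% of tested names. This grouping was made after the values were seen and was not tested. miR-706 and miR-3473b also passed the filter on low counts through their WT reads alone, which favoured a lower call.

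**Figure D5:**
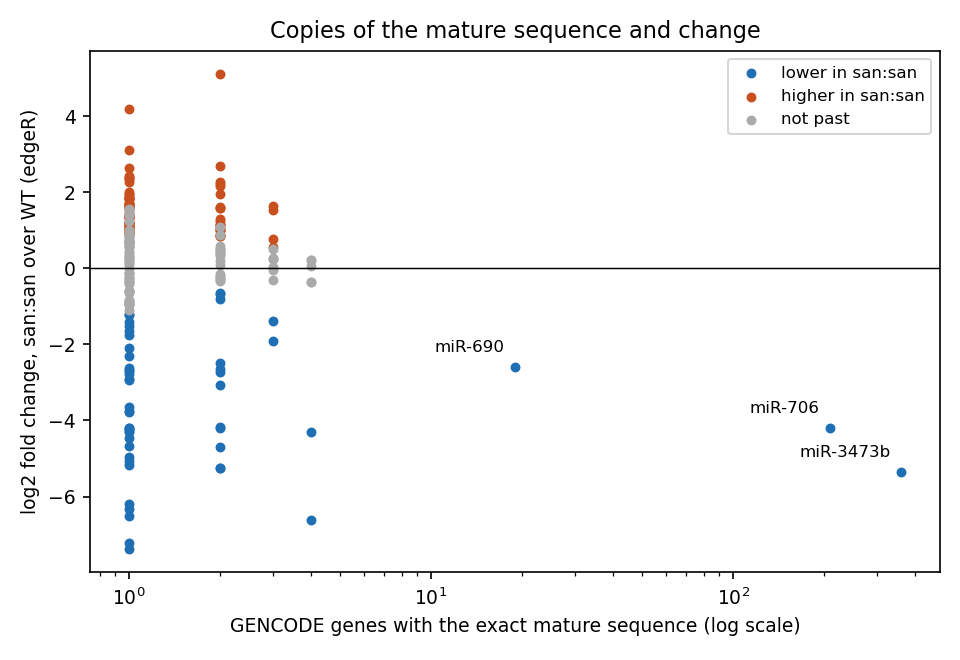
GENCODE genes that hold the exact mature sequence (horizontal, log scale) against the log2 fold change, san:san over WT (vertical), for 208 tested miRNAs with a RefSeq sequence, coloured by call. The 3 names in 5 or more genes, miR-690, miR-706 and miR-3473b, lie between -2.59 and -5.35, while names in 1 gene spread to both sides of 0.

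The miR-690 hairpin also holds a stretch that other names of the table share. The 45 bases from chr16:28599940-28599984 (GRCm38.p6, minus strand) are shown with the stretch shared with miR-3473b in capitals, followed by the miR-3473 names with their shared bases in capitals.
Mir690 stretch: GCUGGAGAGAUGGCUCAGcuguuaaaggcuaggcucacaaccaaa
miR-3473b: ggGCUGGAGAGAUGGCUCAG
miR-3473a: UGGAGAGAUGGCUCAGCa
miR-3473e: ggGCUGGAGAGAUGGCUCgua
miR-3473f: caaauaggaCUGGAGAGAUG
The shared run is 18 bases for miR-3473b, 17 for miR-3473a, 16 for miR-3473e and 11 for miR-3473f. The run of miR-3473b ends 5 bases before the mature miR-690 starts, and the runs of the other names also end before it. The longest run of the mature miR-690 itself that any other matched name holds is 7 bases.

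The 3 tested miR-3473 names with a shared run, miR-3473b, miR-3473e and miR-3473f, were lower in san:san, beside 29.5% of all tested miRNAs. All 3 passed the filter on low counts through their WT reads alone, so the filter itself favoured a lower call. miR-3473b and miR-3473e differ only at their 3′ ends and are not independent names. miR-3473b had 18, 58 and 37 reads in the WT and 6, 5 and 2 in the san:san libraries (log2 -5.35 ± 0.33, edgeR adjusted p = 1.94e-08). miR-3473e had 16, 49 and 27 reads in the WT and 4, 4 and 4 in the san:san libraries (-5.16 ± 0.37, 6.03e-08). miR-3473f had 11, 28 and 15 reads in the WT and 0, 1 and 0 in the san:san libraries, and miR-3473a was too low to test with 0, 1 and 5 against 1, 0 and 0. In all 3 tested names each san:san count lay below each WT count, whereas the counts of miR-690 overlapped. How common such a gap in raw counts is among all tested miRNAs was not counted. These names were chosen for their shared sequence after the counts were seen.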

How the data were processed

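Exosome small RNA libraries of 3 WT and 3 san:san samples were grouped by their titles. Trizol RNA and standard Illumina miRNA libraries are given per the labels' protocols, which name an mRNA library kit too. The build is mm9, per the submitters' processing notes. The sources used here do not give the aligner, trimming, miRNA annotation or exosome isolation. The authors deposited whole-number counts per mature miRNA, used as given. They also deposited a scaled signal per sample, whose columns summed to 1056890 to 1082570, more than a TPM column can. These values were whole multiples of 1 read within 0.1 reads (100% of values), and the recovered reads differed from the counts for 1 name in WT replicate 2. The number of columns from samples outside the series was 0.

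Counts were tested with edgeR 4.0.16 in R 4.3.3 (TMM factors, filterByExpr with a minimum count of 10, robust quasi-likelihood test, Benjamini-Hochberg adjustment over 254 of 707 names, threshold 0.05). The count test on the recovered reads called 163 miRNAs, as with the counts. Alternatives were other scalings, no filter, merged identical rows, thinning, DESeq2 1.42.0, limma 3.58.1 on log2 of the deposited signal plus 1 or 10, and leaving out each library. Shares and ranks were compared by exact permutation over libraries. The procedures were tested on simulated data. Named miRNAs were miR-690, the 2 nearest above and below it by mean level in each genotype, the 5 of most similar profile, 6 reference miRNAs, the list members (at most 4 of each in full, by p) and names from miR-680 to miR-721. The names and lists were chosen with earlier results of these data known. Sequences came from RefSeq (GRCm38.p6), which matched 573 of 707 names, and copies were searched in GENCODE transcripts (vM21).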

Additional observations from a re-analysis of the deposited data

How the results depend on the processing

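The fall of miR-690 kept its direction and its call in all alternatives run. Leaving out 1 library at a time gave log2 fold changes from -2.73 to -2.49, and 133 to 175 miRNAs called. Replicate numbers did not pair the samples (same-numbered libraries correlated at 0.056, -0.033 and 0.164 in their deviations from the genotype means), and a fit with that number as a replicate block put miR-690 at -2.58, with 161 called. Of 131 miRNAs left in libraries thinned to the smallest total, 81 were called, about 38 higher and 44 lower, where fewer miRNAs were tested. The split of calls, 88 higher and 75 lower with TMM, was 76 and 86 with RLE, 49 and 101 with totals, 39 and 103 with the reference miRNAs, 64 and 82 with DESeq2 and 42 and 95 with limma plus 1. The share difference of -1.24 percentage points ran from -1.58 to -1.09 and the rank difference of 48.3 from 43.8 to 52.1 over the alternatives. Reads recovered from the deposited values, an alternative chosen after seeing the data, gave -2.59. The value of 1 read was set there by miR-690 itself. Its recovered counts therefore equal the deposited counts by construction, and this alternative could not differ for miR-690. The ratios to reference miRNAs without 1 library and the lists without miR-690 were also chosen after seeing the data. With 1 WT read worth 27.8 to 69.5 CPM, low miRNAs of the lists are poorly resolved in WT.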
